A study of Mus musculus with 2 samples.

Results

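The cells described are MC38 tumour-sort cells in which Ly6a transcripts and no Snai1 transcript were captured. Members were chosen by these 2 measured counts: a cell was a member when it held 2 or more unique molecular identifiers (UMIs, each standing for 1 captured transcript) of Ly6a and 0 of Snai1. Barcodes were first limited to those of 10000 to 30000 UMIs that showed 500 genes or more and no more than 10% mitochondrial UMIs. The rule took 102 of 1455 kept cells of the IgG library and 236 of 2631 kept cells of the aPD-1 library, or 338 of 4086 in all. The comparison cells were those with 0 UMIs of both genes, 366 in IgG and 897 in aPD-1.

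MC38 is a mouse colon carcinoma line, here grown in C57BL/6 albino mice. Tumour pieces of 40 to 100 µm were embedded in collagen at 2.8 mg/mL inside a microfluidic chip, and they received either a control IgG (clone 2A3) or an antibody that blocks the T cell receptor PD-1 (aPD-1, clone RMP1-14), both at 10 µg/mL. After culture to day 6 these spheroids were dissociated, tumour cells were sorted by flow cytometry, and 1 library per treatment was made with 10x 3′ chemistry; the study's stated subject is the tumour cells left after PD-1 blockade. Which markers the sort used is not stated in the labels, and no label says how many animals were pooled. With 1 library per treatment there was no replicate check and no test, and every interval below is a 95% interval for counting error only.

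Ly6a encodes Sca-1, a small protein held on the cell surface by a lipid (GPI) anchor. It is widely used to sort mouse blood stem cells and tissue progenitors, and it is also found on endothelium and on fibroblasts of the vessel adventitia. Its transcription is raised by interferons. Interferon-gamma, a product of T and NK cells, acts on target genes largely through the GAS motif. Type I interferons act mainly through the ISRE motif. Snai1 is a repressor that drives epithelial cells toward a mesenchymal state.

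To show their regulatory sequence, the 250 bases before the start site are printed for 4 interferon-responsive genes. The 4 were chosen by hand among genes that were higher in the members of both libraries. Sequences are from RefSeq on GRCm38.p6 and run 5′ to 3′ on the gene's strand. Capitals mark every match, on either strand, to GAS (TTCNNNGAA), ISRE (TTTC, any 2 bases, TTTC) or kappa B (GGGA, any 4 bases, CC, a form of the NF-kB motif). Cd274 was searched in the same way, held no match and is not printed.
Gbp2, chr3:142620413-142620662, plus strand, with an ISRE match that starts 59 bases before the start site: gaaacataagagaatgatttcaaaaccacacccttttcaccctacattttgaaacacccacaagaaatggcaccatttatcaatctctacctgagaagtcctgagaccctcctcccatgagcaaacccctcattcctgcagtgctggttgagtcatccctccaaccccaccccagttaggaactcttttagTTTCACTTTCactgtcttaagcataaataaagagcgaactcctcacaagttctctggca
Gbp5, chr3:142496684-142496933, plus strand, with GAS matches at 245 and 52 bases, an ISRE match at 165 and a kappa B match at 77: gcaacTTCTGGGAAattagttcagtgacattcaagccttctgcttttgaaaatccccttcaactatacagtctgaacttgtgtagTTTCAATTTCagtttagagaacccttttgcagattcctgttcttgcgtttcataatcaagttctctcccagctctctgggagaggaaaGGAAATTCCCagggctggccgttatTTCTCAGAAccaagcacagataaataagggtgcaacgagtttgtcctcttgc
Ifit3, chr19:34583279-34583528, plus strand, with ISRE matches at 156 and 122 bases: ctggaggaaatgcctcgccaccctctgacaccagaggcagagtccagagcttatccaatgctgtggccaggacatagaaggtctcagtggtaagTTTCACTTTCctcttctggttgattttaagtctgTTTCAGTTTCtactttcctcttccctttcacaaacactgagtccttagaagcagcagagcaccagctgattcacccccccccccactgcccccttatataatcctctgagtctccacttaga
Cxcl9, chr5:92328080-92328329, minus strand, with a kappa B match at 130 bases: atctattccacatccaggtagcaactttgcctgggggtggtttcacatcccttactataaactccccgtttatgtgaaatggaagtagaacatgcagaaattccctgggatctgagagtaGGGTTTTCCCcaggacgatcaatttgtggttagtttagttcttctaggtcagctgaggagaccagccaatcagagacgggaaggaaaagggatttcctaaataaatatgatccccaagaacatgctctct

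Median depth of the kept cells was 19513 UMIs (3912 genes) in IgG and 16931 UMIs (3471 genes) in aPD-1, and 5 kept barcodes occurred in both libraries. The median depth of members was 19223 UMIs in the IgG library, where comparison cells had 17709, and 15337.5 UMIs in the aPD-1 library, where they had 16669. The IgG matrix had been reduced to called cells before deposit, whereas the aPD-1 matrix listed all 737280 barcodes. In aPD-1 barcodes under 500 UMIs, which hold mostly free RNA, Ly6a was at 153 CPM (UMIs of a gene per 1000000 UMIs, the unit of all levels below; 752 UMIs, interval 142 to 164), above the 65.7 CPM of the kept aPD-1 cells. At that level a barcode holding 500 free UMIs would contain 0.0763 UMIs of Ly6a. No cell type that should lack Ly6a was at hand, so the background within cells was not measured.

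Members made up 7.01% of kept IgG cells (interval 5.75 to 8.45%) and 8.97% of kept aPD-1 cells (interval 7.91 to 10.1%). After every cell was thinned to 10000 UMIs and the rule applied again, the shares were 7.84% (interval 6.51 to 9.34%) and 7.91%, the second lying inside the interval of the first. The thinned rule took 114 IgG cells, against 102 before, so some of them had held Snai1 UMIs before thinning. Among all cells with 2 or more Ly6a UMIs, 30.5% of 334 IgG cells and 46.5% of 507 aPD-1 cells lacked Snai1. Among cells with 0 Ly6a UMIs, Snai1 was absent from a larger share in each library, 42.5% (interval 39.2 to 45.9%) and 53.2% (interval 50.8 to 55.6%). These Snai1 shares were taken before thinning, and a count of 0 depends on depth. Cells with 2 or more UMIs of both genes had median depths of 22160 and 17928 UMIs. Cells with 0 of both had 17709 and 16669. Whether the shares differ at equal depth was not tested. Ly6a was unevenly spread over cells: its variance was 15.3 times its mean in IgG and 7.99 times in aPD-1. Members held 32.1% and 38.8% of all Ly6a UMIs, with a median of 3.5 and 3 UMIs per cell and a highest cell of 76 and 62.

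The label of tumour cells was checked against markers of other types before any comparison. Endothelial markers, a list of 12 genes such as Plvap, Emcn and Pecam1, summed to 549 CPM in IgG members and 84.8 CPM in aPD-1 members, against 28.5 and 25.5 CPM in the comparison cells, and all 12 were detected in the members of each library. The 12 macrophage markers, such as C1qa, Fcer1g and Tyrobp, summed to 634 CPM in IgG members against 22.1 CPM, with all 12 detected. In aPD-1 they summed to 21.8 against 16.8 CPM, and C1qa, C1qc and Adgre1 were at 0. The remaining immune lists were at most 12.7 CPM in members. The 12 T or NK markers summed to 3.04 CPM in IgG members and 2.31 CPM in aPD-1 members, against 1.05 and 1.77 CPM in comparison cells. Of these markers, 2 were detected in IgG members and 5 in aPD-1 members. Cd3e, part of the complex that signals for the T cell receptor, was at 0 in members of both libraries. Cd3d was detected in members of both.

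Some members therefore carried markers of another cell type. With 3 or more UMIs over the markers of 1 such type taken as the limit, 18 IgG members (17.6%) and 19 aPD-1 members (8.05%) passed it, against 5.46% and 4.24% of comparison cells. Endothelial markers accounted for 11 and 12 of these members and macrophage markers for 4 and 6. Results below include these cells unless stated otherwise. Leaving them out left 84 IgG and 217 aPD-1 members. This second value is given for the main counts and for some lists and genes only. Where a gene has 1 value per class and library, that value includes these cells. No doublet caller was run, so mixed barcodes below 30000 UMIs remain.

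Epithelial markers were close to 0, as in the comparison cells: 12 of them summed to 3.55 CPM in IgG members and 0.512 CPM in aPD-1 members, and Epcam, Krt18, Krt19, Krt7, Cldn4, Cldn7 and Cdx2 had no UMI in the members of either library. Fibroblast markers were higher in members, at 1603 against 1061 CPM in IgG and 1318 against 677 CPM in aPD-1, although Lum and Thy1 were at 0. Cells in the top 20% of each library for the summed genes Gsn, Lbp, Dpt and Dcn made up 30.4% of IgG members and 32.6% of aPD-1 members, against 13.7% and 13.8% of comparison cells. The identity of the members as tumour cells rests on the sort.

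The first question was which genes went with Ly6a in cells without Snai1. Interferon-responsive genes were among them: the chemokine gene Cxcl9, the guanylate-binding proteins, the Ifit and Ifi200 genes and Cd274, which encodes PD-L1, were all higher in members of both libraries. Collagen and adventitial fibroblast genes and the surface protein gene Ly6c1 were also higher, while few genes were lower. A gene was counted when the mean of both classes was at least 20 CPM, the ratio at least 1.5-fold and the interval beyond 1. By that rule 115 of 4579 genes measured in both libraries (2.51%) were higher in both and 4 (0.0874%) were lower in both. Of the 115 higher genes, 27 belong to the interferon-gamma or type I interferon lists used below and 88 to neither. The lists do not hold every interferon-responsive gene: the Ifi200 genes are among the 88. Within IgG alone 298 genes (5.88%) were higher and 70 (1.38%) lower, and within aPD-1 alone 196 (4.13%) and 26 (0.548%). Ly6a and Snai1 were left out of these counts, since the rule used them. The rule chose cells by expression, so these counts describe the members and are no test.

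**Figure D1:**
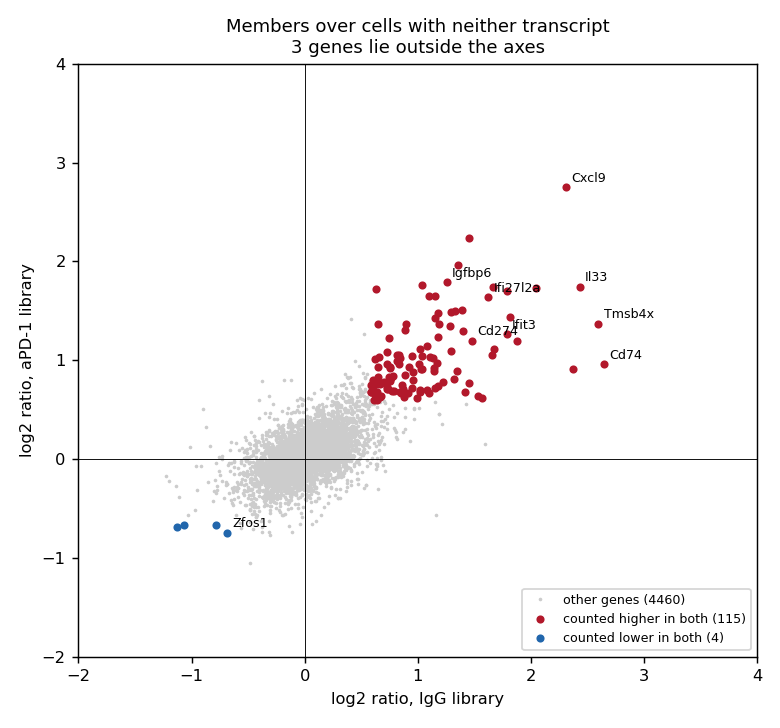
Log2 ratio of members over cells with 0 Ly6a and 0 Snai1 UMIs in the IgG library (x axis) and the aPD-1 library (y axis), 1 point per gene of at least 20 CPM. The 115 genes counted higher in both (red) lie in the upper right and the 4 counted lower (blue) in the lower left; Igfbp7, Ccl4 and Ly6c1 lie outside the axes.

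With the cells of other-type markers left out, 105 genes were higher and 10 lower in both libraries; 94 of the 115 were counted again, and 114 of the 115 kept a ratio above 1 in both. The exception was Igfbp7, a secreted protein abundant in endothelium, which had the highest mean ratio of the 115. It was at 287 CPM in IgG members against 1.51 CPM and at 54.6 against 0.190 CPM in aPD-1, but its UMIs came from 9 IgG and 2 aPD-1 members. Without cells of other-type markers it was at 0.609 CPM in IgG members and had no UMI in aPD-1 members. Of the other genes lost, Tmsb4x, a binding protein of actin monomers, was at 1082 against 179 CPM in IgG members and at 257 against 175 CPM without those cells. The basement membrane collagens Col4a1 and Col4a2 were at 119 and 74.6 CPM in IgG members and at 45.1 and 34.7 CPM without those cells, beside 44.4 and 27.0 CPM in comparison cells treated the same way. Ecscr, an endothelial gene outside the marker list used, was not among the genes lost. Its mean log2 ratio ranged from 1.04 to 1.99 over the alternative settings.

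Ly6a lies on chromosome 15 at 74994877 to 74998031 on the minus strand of GRCm38 and is annotated as protein-coding. Of the 25 measured genes of its Ly6 family, which share a fold of disulphide-linked loops and are mostly GPI-anchored, 3 reached 20 CPM in both libraries. Ly6c1, a marker of monocytes and endothelium that lies beside Ly6a, was at 109 CPM in IgG members against 3.46 CPM (31.4-fold, interval 20.4 to 50.5). In aPD-1 it was at 59.4 against 4.31 CPM (13.8-fold, interval 10.5 to 18.4). With cells of other-type markers left out it was at 55.5 against 3.69 CPM and at 55.3 against 4.20 CPM. At 10000 UMIs per cell 33.3% of IgG members and 31.8% of aPD-1 members had a UMI, against 3.28% and 3.34% of comparison cells. Ly6c1 shares sequence with Ly6c2 and other family members, so reads between them may have been split. Ly6c2 itself was at 2.03 CPM in IgG members and 0 in aPD-1 members.

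Ly6e, the family member with the highest level, was at 748 against 404 CPM in IgG (1.85-fold, interval 1.74 to 1.98) and at 710 against 394 CPM in aPD-1 (1.80-fold, interval 1.72 to 1.88). Ly6e, Ly6a and Ly6c1 lie within 93.8 kb of each other. Plaur, the urokinase receptor, was at 35.5 against 30.6 CPM and at 32.5 against 29.1 CPM, with intervals that include a ratio of 1. Gpihbp1, which carries lipoprotein lipase across capillary endothelium, was at 82.7 CPM in IgG members and at 0.609 CPM without cells of other-type markers. Of 9 genes that make and attach the GPI anchor, 0 were counted in both libraries, with list medians of 0.28 and 0.18 on the log2 scale beside 0.03 and 0.04 over all genes. Here and below, a list's median in a library is over its genes of at least 20 CPM in that library, which can differ in number from those measured in both.

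Interferon-gamma response genes formed the list with the largest share counted among lists of 6 or more genes. Of 19 genes of at least 20 CPM in both libraries, 14 were counted higher in both and none lower, with median log2 ratios of 0.95 over 21 genes in IgG and 1.05 over 19 in aPD-1. Leaving out cells of other-type markers, 15 of 19 were higher, with medians of 0.90 and 1.02. The lists were chosen with earlier results of these data known, so the counts describe the members and are not independent evidence.

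Cxcl9, a chemokine that draws T cells through Cxcr3, was at 347 CPM in IgG members and 70.0 CPM in comparison cells (4.96-fold, interval 4.40 to 5.59). In aPD-1 it was at 195 and 29.0 CPM (6.74-fold, interval 6.00 to 7.59). Both classes stood higher in IgG than in aPD-1, and the IgG member level was 238 CPM without cells of other-type markers. Its UMIs came from 57 IgG and 111 aPD-1 members, and no single cell gave more than 10.8% of them.

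Guanylate-binding proteins, GTPases that attack the vacuoles of intracellular microbes, were higher in both libraries. Gbp2 was at 338 against 150 CPM in IgG (2.26-fold, interval 2.05 to 2.50) and at 346 against 125 CPM in aPD-1 (2.78-fold, interval 2.59 to 2.98). Gbp4 was at 44.1 against 20.6 CPM and at 65.3 against 20.8 CPM, and Gbp5 at 53.3 against 21.8 CPM and at 43.0 against 17.0 CPM. Gbp5, Gbp7, Gbp3 and Gbp2, all 4 counted, lie within 144 kb on chromosome 3. Of the immunity-related GTPases, Iigp1 was at 283 against 112 CPM and at 214 against 75.6 CPM, and Igtp, Irgm1 and Irgm2 were counted too. These families hold near-identical copies, which the authors' counting could split.

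PD-L1 transcripts were higher in members too. Cd274 was at 65.5 against 23.5 CPM in IgG (2.79-fold, interval 2.19 to 3.54) and at 53.3 against 23.3 CPM in aPD-1 (2.29-fold, interval 1.92 to 2.72). In cells thinned to 10000 UMIs it had a UMI in 36.3% and 36.0% of members, against 14.8% and 16.1% of comparison cells. Of the 5 checkpoint ligands and adenosine enzymes of at least 20 CPM, Lgals9, which encodes a galectin ligand of the T cell receptor Tim-3, was the other counted gene, at 67.5 against 21.4 CPM and 34.3 against 16.5 CPM. Its IgG level was 37.2 CPM without cells of other-type markers. Cd47, the signal against uptake by macrophages, was at 427 against 327 CPM and at 312 against 242 CPM, under 1.5-fold in both.

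Among the signalling genes, Irf9, a DNA-binding subunit of the factor that recognises the ISRE, was at 53.8 against 29.1 CPM in IgG and at 42.8 against 29.9 CPM in aPD-1, which passed 1.5-fold only in IgG. Socs3, a feedback inhibitor, was at 142 against 97.1 CPM and at 116 against 63.7 CPM and passed it only in aPD-1. Irf1, an early interferon-induced transcription factor, was at 149 against 119 CPM and at 131 against 90.5 CPM, and Ifngr1, a receptor subunit, at 63.9 against 52.5 CPM and 39.2 against 27.9 CPM. Neither of these was counted in either library.

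Type I interferon genes were higher as well. Of 27 genes of at least 20 CPM, 13 were counted higher in both libraries and none lower, with median log2 ratios of 0.92 in IgG and 0.67 in aPD-1, or 0.91 and 0.63 without cells of other-type markers. Ifi27l2a, a small mitochondrial protein, was at 888 against 288 CPM (3.08-fold, interval 2.88 to 3.29) and at 421 against 136 CPM (3.11-fold, interval 2.91 to 3.32). Ifit3, which supports antiviral RNA sensing, was at 119 against 34.5 CPM (3.44-fold) and at 104 against 43.2 CPM (2.40-fold). Isg15, a ubiquitin-like modifier, was at 833 against 442 CPM and at 648 against 408 CPM. The Ifi200 genes, relatives of cytosolic DNA sensors, were counted as a block of 6 within 466 kb on chromosome 1; of these Ifi203 was at 184 against 70.2 CPM and at 94.5 against 33.3 CPM.

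**Figure D2:**
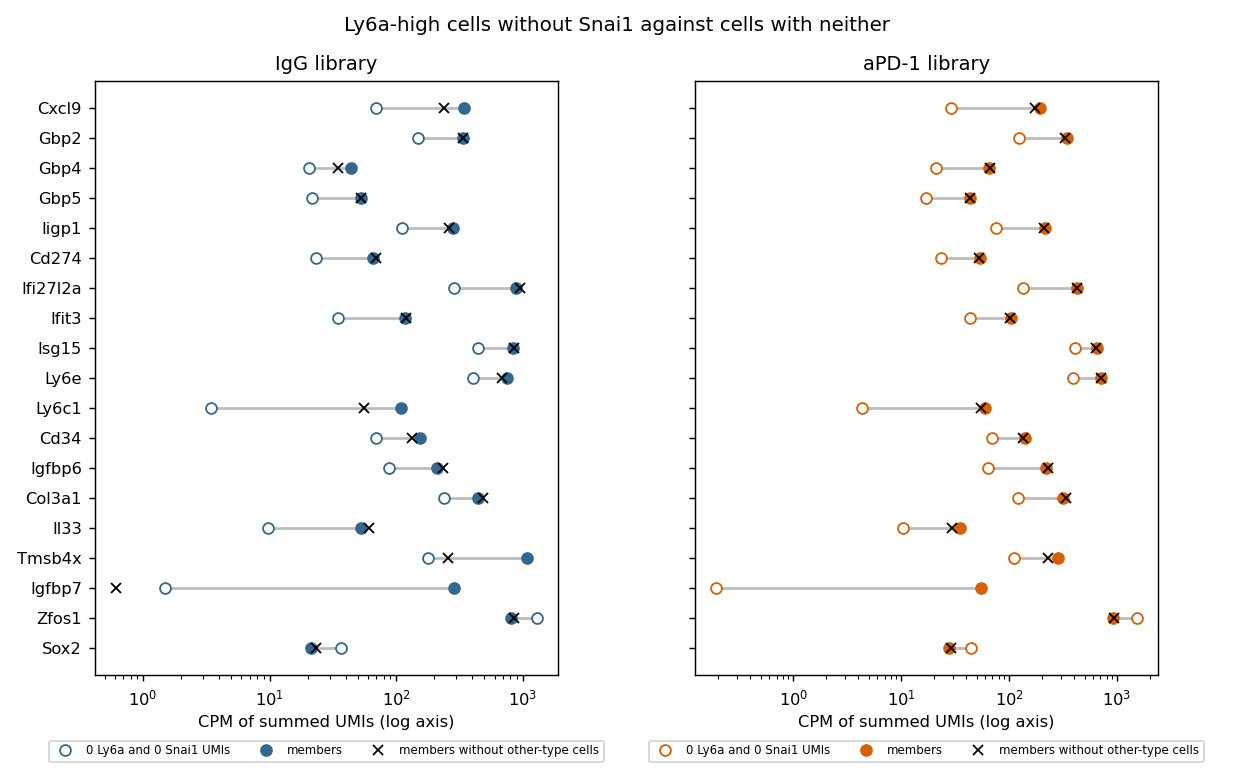
CPM of summed UMIs on a log axis for 19 genes in the IgG and aPD-1 libraries, in members (filled circles), in cells with 0 Ly6a and 0 Snai1 UMIs (open circles) and in members without cells of other-type markers (crosses; none is drawn at 0 UMIs). For Gbp2 and Cd274 the cross lies close to the filled circle, whereas for Igfbp7 in IgG it lies at 0.609 CPM and for Tmsb4x in IgG at 257 CPM.

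Antigen presentation genes had smaller ratios, most of them under 1.5-fold. Of 17 MHC class I genes, 3 were counted higher in both libraries: H2-T22, a non-classical heavy chain, and the immunoproteasome subunits Psmb8 and Psmb9. Psmb9 was at 301 against 198 CPM in IgG and at 261 against 164 CPM in aPD-1. B2m, the shared light chain, was at 3876 against 2636 CPM (1.47-fold, interval 1.43 to 1.51) and at 2647 against 1862 CPM (1.42-fold, interval 1.39 to 1.45), just short of the limit. The list medians were 0.51 and 0.49, with 17 of 17 aPD-1 values above 0.

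In IgG the MHC class II values came from few cells. Cd74, the invariant chain, was at 237 against 37.9 CPM in IgG members, but 48.7% of its UMIs there came from 1 cell, and it was at 56.1 CPM without cells of other-type markers. In aPD-1 it was at 85.1 against 43.7 CPM (1.95-fold, interval 1.70 to 2.22), and at 87.4 against 40.2 CPM without those cells. H2-Aa, a class II heavy chain, followed it at 37.2 against 19.7 CPM in aPD-1. The list median was 2.51 over 8 genes in IgG and 0.84 over 5 in aPD-1. Without cells of other-type markers 4 IgG genes reached 20 CPM, and the medians were 0.49 over these and 0.87 over 5 genes in aPD-1, so the IgG medians cover different genes.

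Genes of adventitial fibroblast progenitors and of matrix were higher too. Of 8 adventitial genes, Gsn (an actin-severing protein), Cd34 and Igfbp6 were counted in both libraries, and the list medians were 0.83 and 0.82. Igfbp6, a binding protein of insulin-like growth factor 2, was at 210 against 87.8 CPM in IgG (2.39-fold, interval 2.10 to 2.71) and at 222 against 64.2 CPM in aPD-1 (3.46-fold, interval 3.15 to 3.79). Cd34, a sialomucin of blood progenitors, endothelium and adventitial cells, was at 153 against 70.0 CPM and at 142 against 69.8 CPM, and at 133 and 135 CPM without cells of other-type markers. Col3a1, a fibrillar collagen, was at 448 against 240 CPM and at 312 against 121 CPM. Of 19 matrix genes 6 were counted, and 4 without cells of other-type markers. Ms4a4d, a membrane protein, was at 48.7 against 15.4 CPM and at 38.7 against 11.6 CPM.

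Cells high in Gsn, Lbp, Dpt and Dcn were more frequent among members, so the counts were repeated without them. With them left out and without cells of other-type markers, an alternative added after seeing the data, 55 IgG and 147 aPD-1 members remained. Then 92 genes were higher in both libraries and 1 lower. Of the 115 genes, 73 were counted again and 112 kept a ratio above 1 in both libraries; Gsn, Isg15, Psmb8, Psmb9 and Cd74 were among those no longer counted. Log2 ratios in IgG and aPD-1 were then 1.61 and 2.55 for Cxcl9, 1.61 and 1.19 for Cd274, 3.69 and 3.60 for Ly6c1, 1.54 and 1.51 for Igfbp6 and 1.05 and 1.67 for Col3a1. Within only the cells high in those 4 genes, 31 IgG and 77 aPD-1 members, 33 genes were higher, of which 25 were among the 115.

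Il33, an alarmin cytokine held in the nucleus of stromal and endothelial cells, was at 52.8 against 9.79 CPM in IgG and at 34.8 against 10.4 CPM in aPD-1. One IgG cell gave 29.8% of its member UMIs, and without cells of other-type markers it was at 61.6 against 9.95 CPM and 29.2 against 10.5 CPM, the latter with a mean under the 20 CPM minimum. Its receptor gene Il1rl1 was at 4.57 against 5.87 CPM in IgG and 25.1 against 22.1 CPM in aPD-1, with intervals that include a ratio of 1. Stem and progenitor surface genes gave 2 of 5 counted, Cd34 and Cd9, and Cd44 was at 243 against 245 CPM and 275 against 234 CPM. The apoptosis inhibitor genes Birc2 and Birc3 were counted in neither library; Birc2 was at 47.2 against 43.4 CPM and 31.3 against 29.3 CPM.

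Only 4 genes were lower in both libraries. Zfos1, a gene of high level here, was at 809 against 1303 CPM in IgG (ratio 0.621, interval 0.588 to 0.655) and at 913 against 1531 CPM in aPD-1 (ratio 0.596, interval 0.576 to 0.618). Sox2, a transcription factor of pluripotent and neural cells, was at 21.3 against 36.6 CPM and at 27.7 against 44.0 CPM. The others were Prkg2, a cGMP-dependent kinase, at 13.2 against 27.7 CPM and 29.5 against 46.9 CPM, and Fam60a at 16.2 against 35.5 CPM and 25.6 against 41.3 CPM. The count of lower genes moved with the processing, from 1 to 23.

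Cell cycle lists had medians below 0. For S phase the median log2 ratio was −0.16 over 17 genes in IgG and −0.17 over 22 in aPD-1, and for G2 and mitosis −0.11 and −0.20 over 18 genes each. Of the 17 genes of each list measured in both libraries, 0 were counted in both. When cells of other-type markers were left out, the G2 and mitosis median was −0.56 in IgG and −0.20 in aPD-1, and Cdc20 and Hmmr were counted lower. Cells below their library's median for the sum of both lists made up 58.8% of IgG and 55.5% of aPD-1 members, against 47.8% and 47.7% of comparison cells. Among those low-cycling cells alone 93 genes were higher and 3 lower, and 70 of the 115 were counted again. All 36 cytoplasmic ribosomal protein genes lay below 0 in both libraries, with medians of −0.15 and −0.13.

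None of the genes measured in both libraries was counted in both for hypoxia (14 genes), glycolysis (14), cholesterol synthesis (19), heat shock chaperones (13), ATF4 and unfolded protein response (22) or the transition factors and targets (6). Of 20 NF-kB targets and inhibitors only Ccl7, a monocyte chemokine, was counted, at 246 against 133 CPM and 214 against 86.6 CPM. The list medians for NF-kB were 0.17 and 0.37. Within aPD-1 alone 5 of 20 NF-kB genes were higher, beside 4.13% of all genes. Within IgG alone 1 of 22 was, beside 5.88% of all genes.

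Motif matches in the 250 bases before the start site were counted for the 85 of the 115 higher genes that the RefSeq table holds. ISRE letters occurred in 22 of them (25.9%), against 3.69% of 3578 tested genes and 3.46% of all 27025 genes of the table. Among the 65 such genes that belong to neither interferon list they occurred in 9 (13.8%); these include Ifi203, Ifi205, Apol9a, Slamf8 and Trim30d. GAS letters occurred in 10 of the 85 (11.8%, interval 5.79 to 20.6%), among them Gbp5, Gbp7, Igtp, Irgm2 and Psmb8. That interval includes the 6.43% of tested genes. Among the 65 genes in neither interferon list GAS letters occurred in 4 (6.15%). Over all genes of the table GAS occurred in 8.13%. Kappa B letters occurred in 27.1%, against 25.5% of tested genes and 19.7% of all genes. The Snai1 E-box CAGGTG occurred in 17 of the 85, against 14.8% of tested genes and 19.4% of all genes. Cd274 held none of GAS, ISRE or kappa B in this window. A match is a run of letters, not a bound site, and GAS and ISRE matches can overlap in a promoter.

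Levels were then followed along the number of Ly6a UMIs in cells without Snai1. The summed interferon-gamma list was at 2385 CPM in IgG cells with 0 Ly6a UMIs, 2664 with 1, 3386 with 2, 4102 with 3 to 4 and 4333 with 5 or more. In aPD-1 the same sums were 2136, 3190, 2848, 4265 and 4438 CPM. The step from just outside the rule (1 UMI, 83 and 208 cells) to just inside it (2 UMIs, 29 and 75 cells) thus went up in IgG and down in aPD-1, with counting intervals that did not overlap in either library. Without cells of other-type markers the IgG sums were 2370, 2704, 3436, 4496 and 3957 CPM, so the last step was lower than the one before it, and the aPD-1 sums were 2126, 3236, 2776, 4252 and 4410 CPM. The type I sum in IgG was 3636 CPM at 1 UMI and 5697 CPM at 2, and in aPD-1 3791 and 3819 CPM. In its last 2 IgG steps it was at 5924 and 6059 CPM with all cells, and at 6533 and 5882 CPM without cells of other-type markers. Gbp2 stood higher at each step, from 150 through 243, 278 and 306 to 408 CPM in IgG and from 125 through 194, 265 and 338 to 435 CPM in aPD-1. Igfbp6 reached 294 and 315 CPM in cells with 5 or more Ly6a UMIs.

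Some of the highest values came with markers of other types. In IgG cells with 5 or more Ly6a UMIs Cxcl9 was at 593 CPM, and endothelial and macrophage markers there summed to 1058 and 1564 CPM. With cells of other-type markers left out those sums were 33.6 and 17.6 CPM and Cxcl9 was at 299 CPM, still above the 69.0 CPM of cells with 0 Ly6a UMIs. Ly6c1 in the same cells was at 245 CPM, and at 118 CPM without them. In aPD-1 it was at 114 and 108 CPM.

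**Figure D3:**
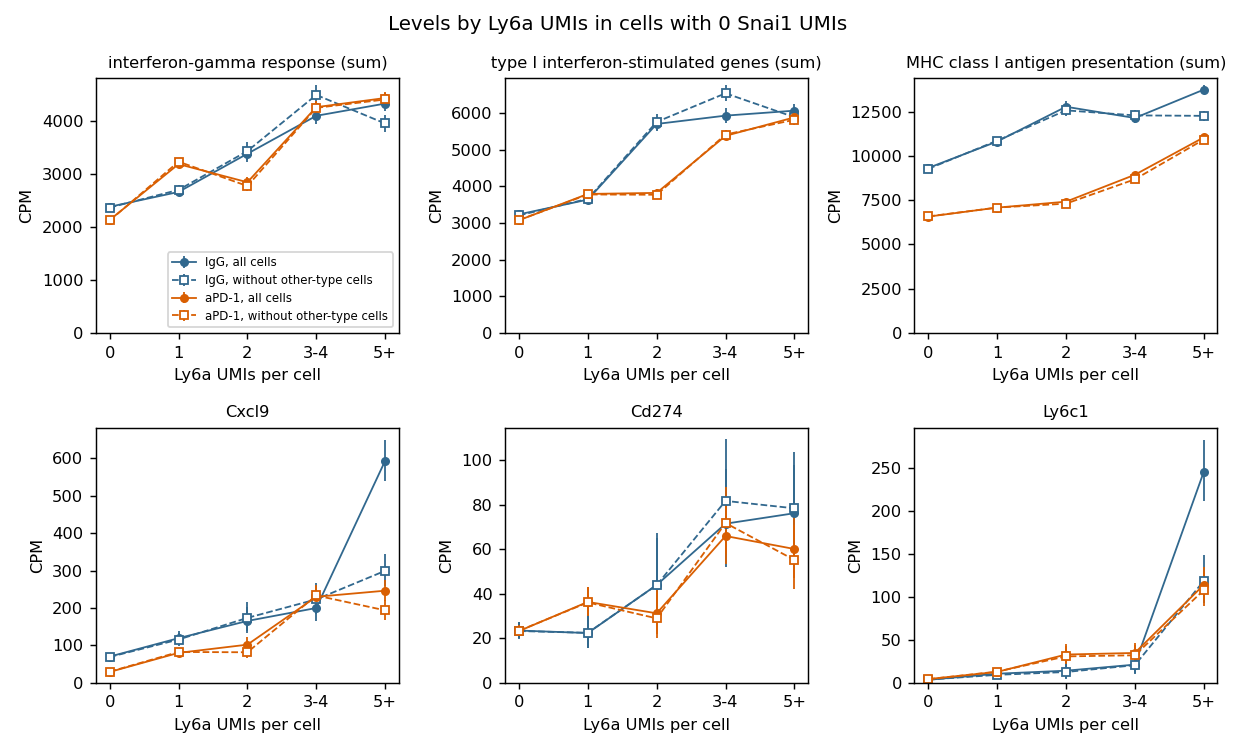
CPM of 3 gene lists and 3 genes in cells with 0 Snai1 UMIs by Ly6a UMIs per cell, in IgG (blue) and aPD-1 (orange), with all cells (solid lines) and without cells of other-type markers (dashed lines); bars are exact Poisson 95% intervals. The interferon-gamma sum goes from 2385 to 4333 CPM in IgG and from 2136 to 4438 CPM in aPD-1, and the dashed line parts from the solid one in the last steps of several panels, among them Cxcl9 and Ly6c1 in IgG (593 against 299 and 245 against 118 CPM) and the interferon-gamma sum in IgG (4333 against 3957 CPM).

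Per cell, the interferon lists were shifted but overlapped widely. At 10000 UMIs per cell, members held a median of 26.5 UMIs of the interferon-gamma list in IgG and 29.5 in aPD-1, against 15 and 13 in comparison cells. The type I list gave 46 and 42 against 27 and 24. Above the 90th percentile of the comparison cells lay 26.5% and 26.7% of members for the interferon-gamma list and 33.3% and 31.8% for the type I list. Both lists were below that percentile in 58.8% of IgG and 57.2% of aPD-1 members, and in 84.7% and 84.5% of comparison cells. Both were above it in 19 of 102 IgG members and 37 of 236 aPD-1 members. With the 10% of cells highest in type I genes left out of each library, 79 genes were higher in members, 70 of them among the 115.

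**Figure D4:**
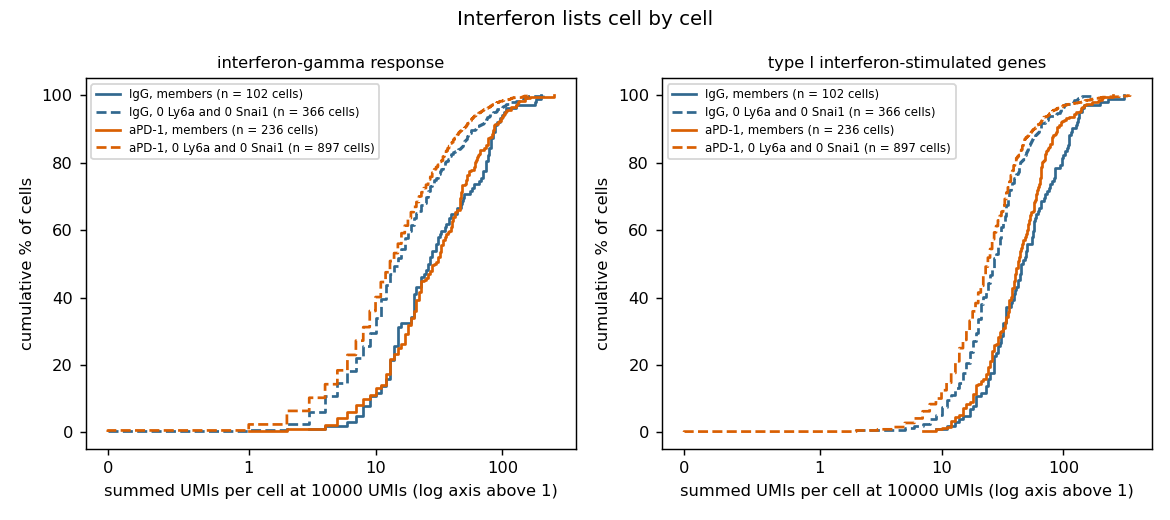
Cumulative share of cells (y axis) by summed UMIs of the interferon-gamma list (left) and the type I list (right) per cell at 10000 UMIs, on an axis that is logarithmic above 1. The member curves (solid) lie to the right of the comparison curves (dashed) in both libraries, with interferon-gamma medians of 26.5 and 29.5 against 15 and 13 UMIs, and the curves overlap over most of their range.

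The second comparison kept Ly6a and varied Snai1. Against cells with 2 or more UMIs of both genes (149 in IgG and 130 in aPD-1), only 2 genes were higher in members of both libraries (0.0429% of 4659) and 2 lower (0.0429%). Within IgG 3.56% of genes were higher and 1.21% lower, and within aPD-1 0.698% and 1.23%. The higher ones were Igfbp7, at 287 against 64.0 CPM and at 54.6 CPM against 0, and AA467197, the latter named after its values were seen, at 55.8 against 19.3 CPM and 37.2 against 22.9 CPM. Igfbp7 was nearly absent from members once cells of other-type markers were left out, as given above. The lower ones were Hes1, a repressor downstream of Notch, and Hmmr, a spindle protein. Hes1 was at 126 against 244 CPM in IgG (ratio 0.517, interval 0.447 to 0.597) and at 32.0 against 69.8 CPM in aPD-1 (ratio 0.459, interval 0.361 to 0.582). None of the interferon-gamma genes was counted in both libraries, with list medians of 0.39 in IgG and −0.01 in aPD-1. The 2 libraries differed here. Within IgG 7 of 21 interferon-gamma genes, 7 of 28 type I genes and 5 of 8 MHC class II genes were higher. Within aPD-1 0 of 20 interferon-gamma genes were higher, and 4 of 30 type I genes were lower. These list counts include cells of other-type markers. Cd274 was at 65.5 against 28.5 CPM in IgG and at 53.3 against 50.3 CPM in aPD-1. The counts were 1 higher and 4 lower without cells of other-type markers.

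Against cells with 2 or more Snai1 UMIs and no Ly6a (275 and 335 cells), 67 of 4660 genes (1.44%) were higher in members of both libraries and 11 (0.236%) lower. Within IgG 4.21% were higher and 1.56% lower, and within aPD-1 2.7% and 0.602%. The counts in both libraries were 54 and 13 without cells of other-type markers. Of 19 interferon-gamma genes 12 were among the higher, with medians of 0.72 and 0.83 beside −0.02 and −0.02 over all genes. Cxcl9 was at 347 against 89.2 CPM in IgG and at 195 against 28.8 CPM in aPD-1, and Cd274 at 65.5 against 24.6 CPM and 53.3 against 19.7 CPM. The lower genes included the mitotic genes Hmmr, Cdc20, Cdkn3, Knstrn and Cenpa and the BMP target Id3. Cdc20, an activator of the anaphase-promoting complex, was at 35.0 against 83.6 CPM and at 22.5 against 46.1 CPM. These comparisons share the members, so their lists are not independent of each other.

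The last comparison set aPD-1 members beside IgG members, 1 library each. By the same rule 131 of 5013 genes (2.61%) were higher in aPD-1 members and 510 (10.2%) lower, beside a median of −0.12 (log2) over all genes. In the comparison cells 57 genes (1.18%) were higher and 301 (6.25%) lower, with a median of −0.13. Relative to the median of all genes, 236 were higher and 310 lower in aPD-1 members. Treatment and library cannot be told apart here.

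The lowest genes were those of macrophages: Apoe, C1qb, Tyrobp, Fcer1g, C1qa and C1qc, led by Apoe at 1.02 CPM in aPD-1 members and 223 CPM in IgG members. Once cells of other-type markers were left out, Apoe was at 1.13 and 2.44 CPM and C1qa at 0 in both. The lowest 6 were then Spib, Rarres2, Jup, Lbp, Gsn and Hes1; Lbp, the lipopolysaccharide-binding protein, was at 19.0 against 84.1 CPM, and in comparison cells at 3.53 against 20.4 CPM. Without those cells 148 genes were higher and 429 lower.

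Among genes higher in aPD-1 members were Hist1h1b, a linker histone, at 46.6 against 4.57 CPM (10.2-fold, interval 5.26 to 22.7), and Inhba, a subunit of activin, at 44.8 against 8.63 CPM (5.20-fold, interval 3.15 to 9.13). The same ratios in comparison cells were 3.64 and 1.56. Nppb, the B-type natriuretic peptide, was at 44.8 against 5.07 CPM in members and at 11.5 against 8.13 CPM in comparison cells. Hmga2, an architectural DNA-binding protein, was at 74.0 against 18.8 CPM in members and 77.6 against 35.5 CPM in comparison cells. Of the interferon genes, Gbp2 was at 346 and 338 CPM (ratio 1.02, interval 0.932 to 1.12) and Cd274 at 53.3 and 65.5 CPM (ratio 0.814, interval 0.650 to 1.02). Cxcl9 was lower in aPD-1 members (ratio 0.563, interval 0.507 to 0.625). That ratio includes cells of other-type markers, without which the IgG member level was lower, as given above. Cxcl9 was lower in aPD-1 comparison cells too, at 29.0 CPM against 70.0 CPM in IgG. The interferon-gamma list had a median of −0.16 in members and −0.22 in comparison cells. Whether these ratios differ between members and comparison cells was not tested.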

How the data were processed

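Single-cell RNA was measured in 1 IgG and 1 aPD-1 library. The deposited matrices hold raw UMI counts, and per the file headers Cell Ranger 3.0.2 wrote them; the submitters' processing notes also name Seurat 2.1.0 and mm10. No source used here names the gene annotation. Each matrix has 28692 genes. The members, lists and named genes were chosen with earlier results of these data known.

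UMIs were summed per class and library in Python 3.11.15 (numpy 2.4.6, scipy 1.17.1, pandas 2.3.3) and divided by all UMIs of the class to give CPM. Ratios carry exact conditional binomial 95% intervals, shares Clopper-Pearson and levels Poisson intervals. With 1 library per treatment no test was run. A class at 0 was set to a floor of 3 counts, over the class, and no ratio is given where both classes are at or under it. Of 783 list symbols 8 did not match. No doublet caller was run. The steps were tested on simulated counts. Coordinates come from GENCODE M21 on GRCm38 (mm10), which gave positions for 28339 genes.

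Named genes were the up to 12 highest and 12 lowest by mean log2 ratio among genes counted in both libraries, leaving out unnamed gene models and haemoglobin, mitochondrial and ribosomal genes; up to 3 extremes in each direction of each of 31 lists; a fixed set around Ly6a and Snai1; and up to 6 in each direction for other comparisons. Other names, and those reported after leaving cells out, were chosen after their values were seen. Alternatives changed the filters, depth, scaling, CPM minimum and cells used; 2 were added after seeing the data. Promoters of some genes, Ly6a among them, were not used here. Results that need an item withheld for evaluation are not reported here.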

Additional observations from a re-analysis of the deposited data

Results flagged for a closer look

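Ly6a transcripts were present in data that no comparison used. In aPD-1 barcodes under 500 UMIs, Ly6a was at 153 CPM (752 UMIs, interval 142 to 164), above the 65.7 CPM of kept aPD-1 cells. The IgG matrix has no barcodes under 500 UMIs to compare.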

How the results depend on the processing

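No paired analysis was possible because each treatment has 1 library, so no replicate numbers exist; members and comparison cells were set against each other within each library, with no test. Depth limits low genes, and intervals cover counting error only. For all results below the cause of a change was not tested, apart from stricter or looser minimums, which change the genes counted. With 3 or more Ly6a UMIs members were 5.02% of IgG and 6.12% of aPD-1 cells, and 16 genes were lower in both libraries. At a minimum of 50 CPM, 60 genes were higher and 1 lower; against double-positive cells 0 and 1, against Snai1-high cells 32 and 6, and between libraries 40 and 207. With no minimum 318 were higher and 18 lower. Lower genes numbered 17 without ribosomal and mitochondrial UMIs, 23 after thinning to 10000 UMIs, 8 centred on the median of all genes, 8 without the highest member cell of each gene, 1 without the 10% of cells highest in type I genes, 10 without cells of other-type markers, and 1 when cells high in Gsn, Lbp, Dpt and Dcn were left out as well. Against double-positive cells, 1 was higher and 4 lower without other-type cells, and 4 were lower without cells high in those 4 genes. Centring gave 236 higher and 310 lower between libraries. Within only the cells high in those 4 genes, 33 were higher, lists over 0.2 above the median of all genes fell from 13 to 3, and the mean log2 ratio turned for Clu (−0.25), Col4a1 (−0.42), Col4a2 (−0.10) and Fam60a (0.0095). Of the other values of named genes, 2216 stayed within their counting intervals and 354 moved outside them.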
